A study of Homo sapiens with 12 samples.

Results

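The 8 libraries described here are the second and the third replicate of every transfection in an RNA-seq experiment of 12 libraries on HEK293 cells, an immortalized line from human embryonic kidney. The replicate number was taken as the culture passage and harvest, so that the 4 libraries of replicate 3 were set against the 4 libraries of replicate 2, each paired with the library of the same construct. All cells were wild type for the genotype given by the labels and were transfected transiently with 1 μg of plasmid, then collected 48 hr later for poly(A) RNA. The constructs were PEG10 gag-pol, PEG10 gag, the PEG10 nucleocapsid fragment (NC) and, as control, LifeAct-Dendra2, a fluorescent actin-binding reporter. PEG10 is a domesticated retrotransposon gene whose reading frames resemble retroviral gag and pol. Neither passage numbers nor harvest dates are given for single libraries. The spread behind the p-values below is what construct and replicate number leave over in all 12 libraries, with 1 library per construct and replicate. As the 4 libraries of a side share 1 number, these p-values, from 1 cell line, do not tell how far other harvests would differ.

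Cells of a line can change between harvests in density, in nutrients left in the medium, in the state of innate immune signaling and in how they took up plasmid. Transcripts report on several of these states through well-known programs. In the integrated stress response, shortage of amino acids or other stress raises translation of the transcription factor ATF4, which induces genes of amino acid synthesis, amino acid import and tRNA charging. Interferon signaling acts through a complex that includes STAT2 and IRF9 and binds the interferon-stimulated response element. NF-kappaB is held in the cytosol by the inhibitor encoded by *NFKBIA* and induces chemokines, its own inhibitors and its own subunits. TFEB and TFE3 are transcription factors that induce lysosomal genes through the CLEAR element, and FOXO factors induce genes of growth arrest. These are bulk samples, in which fewer cells of a type and less RNA per cell cannot be told apart.

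Counts assigned to genes ran from 38001260 to 41708839 per library in replicate 2 and from 33996811 to 45316749 in replicate 3. Of 26485 genes in the table, 17176 passed the filter on low counts and were tested. The biological coefficient of variation across all libraries was 10.7%. *PEG10* normalized counts (counts scaled by library total and TMM factor to the mean total of the 12 libraries) were 12638, 1331700, 1409200 and 91543 in replicate 2 and 8404, 1089300, 2439100 and 146120 in replicate 3, in the order control, gag-pol, gag and NC, which is kept for all values below. Thus transfected *PEG10* was present in all 6 PEG10 libraries, and its difference of 0.19 on the log2 scale between the replicates (SE 0.33) had an adjusted p of 0.731 in edgeR's quasi-likelihood test. The individual pairs went both ways, with control and gag-pol lower and gag and NC higher in replicate 3.

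The replicate 3 libraries of control and gag stood apart from those of gag-pol and NC. In a principal component analysis of 13419 genes, the first component held 37.3% of the variance and placed replicate 1 from -25.43 to -18.02, replicate 2 from -13.44 to 5.564 and replicate 3 from 16.24 to 30.17. The second component held 31.4% and placed control and gag of replicate 3 at 26.99 and 17.53, against -13.16 for gag-pol and -12.39 for NC. In replicate 2 all 4 libraries were below 0 on this component, at -10.77 for control, -8.522 for gag, -24.75 for gag-pol and -27.2 for NC, so that control and gag were above gag-pol and NC in every replicate. For each list with at least 4 members called in a direction, the count is therefore also given without these 2 libraries, an alternative chosen after the data were seen.

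**Figure D1:**
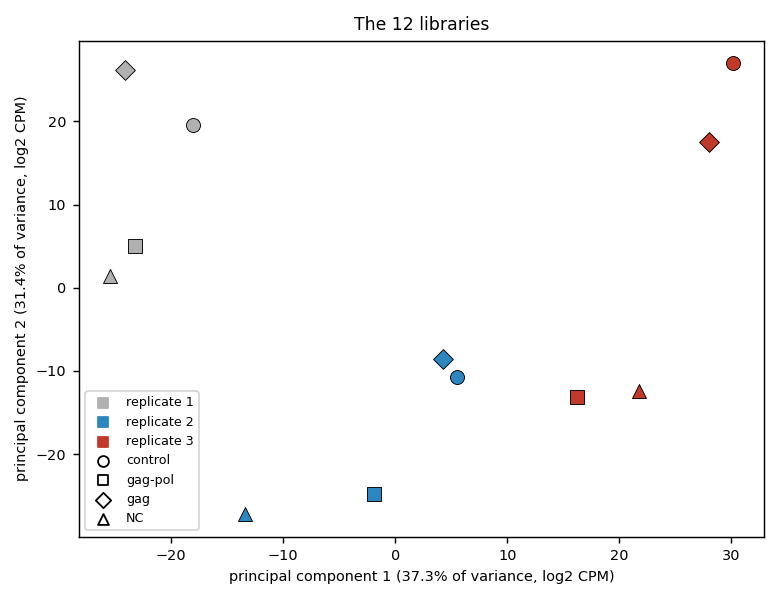
Scores of the 12 libraries on the first and second principal components of log2 CPM over 13419 genes, with colors for the replicate number and symbols for the construct. On the first component all replicate 3 libraries lie at 16.24 or above and all replicate 2 libraries at 5.564 or below, and on the second component control and gag of replicate 3 lie apart from gag-pol and NC of the same replicate.

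Between replicate 3 and replicate 2, 4653 of the 17176 genes differed at an adjusted p under 0.05 in edgeR's quasi-likelihood test and are termed called (27.1%), and 6481 had an unadjusted p under 0.05. Of the called genes 2223 were higher in replicate 3 (12.9% of genes tested) and 2430 were lower (14.1%). Most differences were small. Called genes had a median absolute log2 fold change of 0.388. Of them 1543 reached 0.5, with 722 higher, and 366 changed at least 2-fold, 248 upward and 118 downward. The 4 replicate 3 values did not overlap the 4 replicate 2 values for 2659 genes (15.5% of genes tested), of which 2214 were called. All 4 construct pairs had the same sign for 4217 called genes (24.6% of genes tested). Without control and gag of replicate 3, 1741 genes were called, 778 higher and 963 lower, and 1680 of them were among the 4653 with the same sign. All 4644 genes called in the full comparison that also had a value there kept their sign. Without gag-pol and NC of replicate 3 the number was 4478, with 2148 higher and 2330 lower. The 10 largest absolute log2 fold changes at any level ran from -4.89 to 4.91, 8 of them rises, at mean log2 CPM (counts scaled to library size) of -2.44 to 3.74.

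Among genes with a mean of at least 3 log2 CPM, the largest rise was that of *SLC6A12*, a sodium- and chloride-coupled transporter of betaine and GABA (build GRCh38, chr12:190077-214570, minus strand). Normalized counts were 96.7, 68.3, 85.3 and 51.2 in replicate 2 and 3626, 142, 1591 and 132 in replicate 3. All 4 replicate 3 libraries were above all replicate 2 libraries, but control and gag were far above gag-pol and NC. The log2 fold change was 3.4 (SE 0.87, adjusted p = 0.0314), and the call was lost without NC replicate 1, gag replicate 1, gag-pol replicate 1, control replicate 2, gag replicate 2, control replicate 3 or gag replicate 3 (adjusted p 0.0513 to 0.117). Without both control and gag of replicate 3 it was 1.29 (adjusted p = 0.00603). *IFI6*, an interferon-induced mitochondrial protein, is described with its group below. *CARD6* (log2 fold change 1.42) encodes a caspase recruitment domain protein and *DOK3* (1.42) an adaptor of immune receptor signaling. *SNAI1* (1.41) encodes the Snail repressor of epithelial genes, *REC8* (1.34) a meiotic cohesin subunit and *FILIP1L* (1.30) a filamin A-interacting protein. *IFIT1* (1.24) binds viral RNA and *CCL5* (1.23) is a chemokine. The pseudogene *PRKXP1* (1.24) resembles its parent kinase gene, so that its reads are uncertain. Calls were lost for *PRKXP1* without control replicate 1, gag-pol replicate 1, control replicate 2 or control replicate 3 (adjusted p 0.0553 to 0.0951) and for *CCL5* without NC replicate 2, control replicate 2 or gag replicate 3 (adjusted p 0.0518 to 0.0693). Of these 10 rises, 6 did not overlap between the replicates, against 15.5% of all genes tested, and adjusted p ran from 2.58e-07 to 0.0314. They were chosen among called genes with the same sign in all 4 pairs, so neither value is separate support.

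The 10 largest falls did not overlap between the replicates in any case, against 15.5% of all genes tested, with adjusted p from 3.46e-08 to 0.000132. Chosen by the same rule as the rises, they were called and had 1 sign in all 4 pairs by selection. *SMIM10L2A* fell by 1.49 on the log2 scale, from 441, 477, 330.3 and 614 in replicate 2 to 108, 268, 73.1 and 268 in replicate 3. It has the near-identical neighbor *SMIM10L2B*, so the share of reads of each is uncertain. *FAH*, the last enzyme of tyrosine breakdown, fell by 1.36 (SE 0.11), from 497, 870.2, 563 and 918 to 239.8, 347, 207 and 303. *ALDH1L2*, a mitochondrial enzyme of folate metabolism induced by ATF4, fell by 1.23. *SFRP5* (-1.38) is a secreted Wnt antagonist, *MICAL2* (-1.37) an actin-oxidizing monooxygenase and *SLC24A4* (-1.30) a potassium-dependent sodium and calcium exchanger. *RAB36* (-1.28) is a small GTPase, *ZNF334* (-1.15) a zinc finger protein and *PCYOX1L* (-1.26) a relative of prenylcysteine oxidase. *LRRC3* fell by 1.15.

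**Figure D2:**
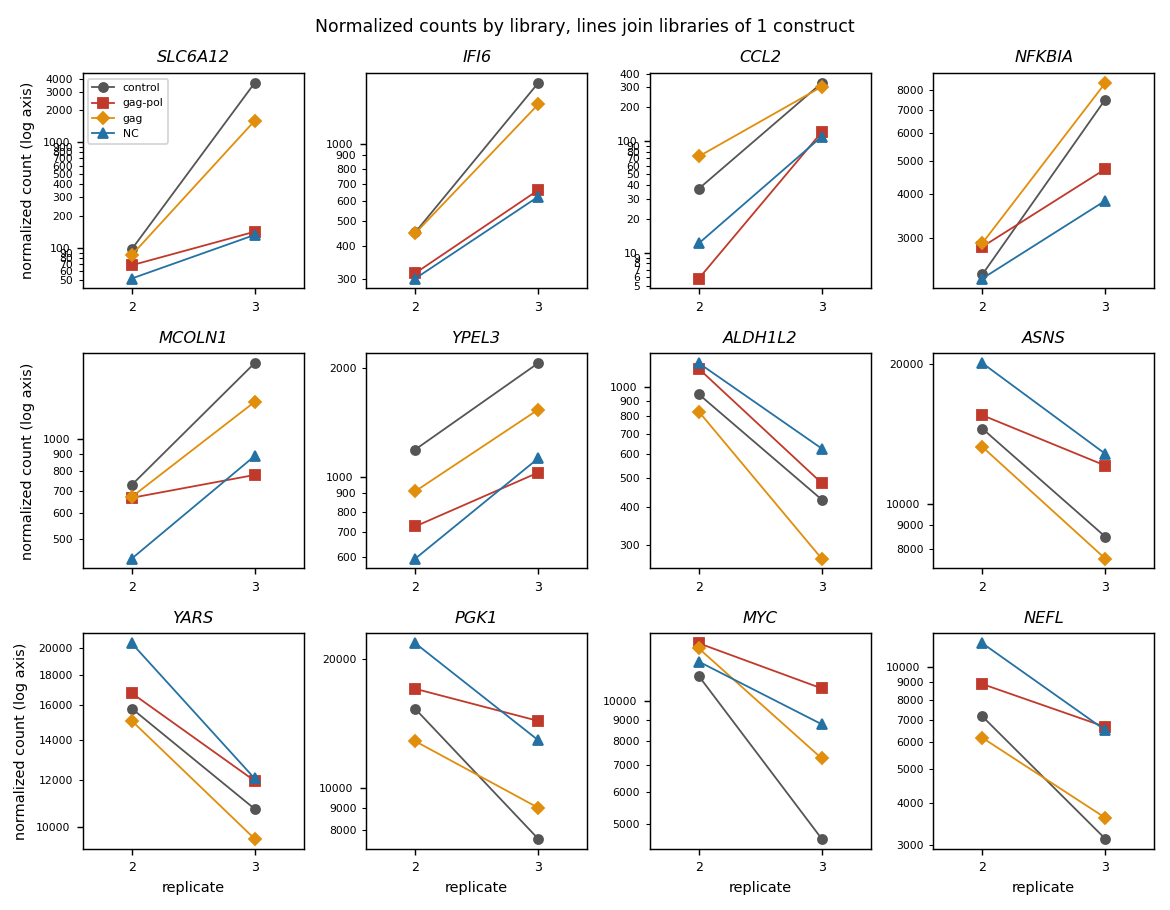
Normalized counts on a log axis of 12 genes in the 8 libraries of replicates 2 and 3, with a symbol for each construct and a line joining its libraries. *SLC6A12*, *IFI6*, *CCL2*, *NFKBIA*, *MCOLN1* and *YPEL3* are shown among the rises and *ALDH1L2*, *ASNS*, *YARS*, *PGK1*, *MYC* and *NEFL* among the falls from replicate 2 to replicate 3.

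Genes of the integrated stress response were lower or not called. Of 26 members tested, 16 were lower in replicate 3 and 0 were higher, against 14.1% and 12.9% of all genes tested. The median log2 fold change was -0.35, against -0.01 over all genes. The medians of the pairs were -0.32, -0.29, -0.35 and -0.41. Leaving out any 1 library gave 15 to 17 lower members, and without control and gag of replicate 3 there were 14, with a median of -0.33. The mRNA of *ATF4* itself was not called (0.17, adjusted p = 0.118), and neither were *DDIT3* (-0.08) and *ATF3* (0.04).

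The lower members covered amino acid synthesis, import and one-carbon metabolism. *ASNS*, asparagine synthetase, had normalized counts of 14530, 15532, 13271 and 20117 in replicate 2 and 8498, 12097, 7619.9 and 12825 in replicate 3. The replicates did not overlap, and *ASNS* fell by 0.64 (SE 0.09, adjusted p = 3.12e-05). *PSAT1* (-0.76), *PHGDH* (-0.38) and *PSPH* (-0.38) make serine from a glycolytic intermediate, and all 3 enzymes of that route were lower. *ALDH1L2* had normalized counts of 948, 1152, 830.1 and 1203 in replicate 2 and 424, 481, 269.6 and 626 in replicate 3. This fall of 1.23 (SE 0.12, adjusted p = 5.19e-07) was the largest of the group. *MTHFD2* (-0.44), another mitochondrial folate enzyme, and *PCK2* (-0.88), mitochondrial PEP carboxykinase, were lower too. Among transporters, *SLC7A11* (-0.63) imports cystine and *SLC7A5* (-0.66) large neutral amino acids, while their shared partner *SLC3A2* was at 0.25 (adjusted p = 0.0639). The regulators *TRIB3* (-0.62), *DDIT4* (-0.69), *CEBPG* (-0.32) and *ATF5* (-0.50) and the glutathione-degrading enzyme *CHAC1* (-0.79) were lower. *STC2* (-0.29) and *VLDLR* (-0.24) complete the called members.

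Aminoacyl-tRNA synthetases, which charge tRNAs with amino acids and many of which ATF4 induces, were likewise lower or not called. Of 19 tested, 8 were lower (42.1%, against 14.1% of all genes tested) and 0 higher, with a median of -0.16. Leaving out 1 library gave 7 to 8 lower members, and 6 were lower without control and gag of replicate 3 (median -0.14). *YARS* (tyrosine) had normalized counts of 15806, 16778, 15071 and 20358 in replicate 2 and 10709, 11940, 9536 and 12050 in replicate 3. The replicates did not overlap, and it fell by 0.62 (SE 0.07, adjusted p = 3.62e-06). The other lower members were *IARS* (-0.50), *FARSB* (-0.41), *LARS* (-0.38), *GARS* (-0.32), *WARS* (-0.31), *NARS* (-0.27) and *KARS* (-0.21). Among members not called, *AARS* (alanine) was at 0.01 and *CARS* (cysteine) at -0.01.

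The letters TGATGNAA, the core of the amino acid response element to which ATF4 binds with a C/EBP partner, were looked for on both strands in RefSeq promoter windows (build GRCh38.p14, 250 bases before to 50 after each start), and 3.62% of 35116 windows and 2.84% of those of genes tested here held them. Among all genes called lower that had a window, 2% held them. Of 21 integrated stress response members with a window, 7 held a match, which were 3 of 13 called lower (*ASNS*, *CHAC1* and *CEBPG*) and 4 of 8 not called. Only 14 of 19 synthetases had a window, so a count over that list is void as a comparison. Matches were in 3 of 6 called lower (*GARS*, *IARS* and *NARS*) and 4 of 8 not called. A match describes the sequence and is not evidence of binding in these cells. The stretches below show the matches, in capitals, in the strand of the gene, for 2 stress response genes and the isoleucine synthetase gene that fell, at *ASNS* chr7:97872439-97872506 (minus strand), *CHAC1* chr15:40953232-40953299 (plus strand) and *IARS* chr9:92293698-92293740 (minus strand).
ASNS: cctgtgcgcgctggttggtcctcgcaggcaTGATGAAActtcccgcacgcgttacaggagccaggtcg
CHAC1: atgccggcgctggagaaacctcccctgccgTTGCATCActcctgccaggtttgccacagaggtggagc
IARS: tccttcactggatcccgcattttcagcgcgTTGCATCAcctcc

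Among interferon-stimulated genes, 10 of 26 tested were higher in replicate 3 (38.5%, against 12.9% of all genes tested) and 1 was lower (3.85%, against 14.1%). The median was 0.55, and leaving out 1 library gave 8 to 13 higher members. Without control and gag of replicate 3 the numbers were 5 and 0, with a median of 0.38. The summed normalized counts of the list ran from 9779 to 15143 in replicate 2 and from 13434 to 24755 in replicate 3, so the sums overlapped. The pair medians were 0.85, 0.28, 0.49 and 0.39, largest for control.

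*IFI6* (chr1:27666064-27672212, minus strand) had normalized counts of 453, 315, 449.8 and 300.4 in replicate 2 and 1715, 660.3, 1417 and 623 in replicate 3. Every replicate 3 library was above every replicate 2 library, with control and gag highest, and the log2 fold change was 1.47 (SE 0.23, adjusted p = 0.00141). *IFIT1* counts were 377, 265, 559.6 and 209 in replicate 2 and 1409.5, 426, 1203 and 482 in replicate 3. This rise of 1.24 (adjusted p = 0.000117) overlapped between the replicates. *STAT2* (0.26) and *IRF9* (0.92), which encode parts of the interferon-activated factor, were higher. *OAS3* (1.07) makes the activator of RNase L, *DDX58* (0.74) senses viral RNA and *IFITM1* (0.76) restricts viral entry. *IFI44L* (2.31) and *IFI27* (0.58) were also higher. *ISG15*, a ubiquitin-like modifier, was at 0.48 (adjusted p = 0.0522) and *MX1* at -0.46 (adjusted p = 0.264), neither called. *IRF7*, the factor that amplifies interferon gene expression, went the other way at -1.29 (adjusted p = 0.0123), from 163, 298, 269 and 114 to 63.4, 106, 44.2 and 131. Its call was lost without gag-pol replicate 2 or control replicate 3 (adjusted p 0.0515 to 0.0746).

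Of 12 NF-kappaB targets 7 were higher (58.3%, against 12.9% of all genes tested) and 0 lower, with a median of 0.60. Leaving out 1 library gave 5 to 7 higher members, and without control and gag of replicate 3 there were 3 (median 0.38). *CCL2*, the chemokine that recruits monocytes, had normalized counts of 37.3, 5.85, 72.5 and 12.1 in replicate 2 and 329, 119.5, 305 and 109 in replicate 3. No replicate 3 library fell within the range of replicate 2, and the rise was 2.95 (SE 0.29, adjusted p = 7.07e-07). Without control and gag of replicate 3 it was 3.43 (adjusted p = 0.000238). *NFKBIA*, the inhibitor that NF-kappaB induces, had counts of 2351, 2825, 2894 and 2289 in replicate 2 and 7492, 4726, 8357 and 3832 in replicate 3. Its rise was 1.2 (SE 0.24, adjusted p = 0.0121). The other rises were those of the neutrophil chemokine *CXCL8* (1.21), the feedback deubiquitinase *TNFAIP3* (0.63), the subunits *NFKB2* (0.58) and *RELB* (0.23) and the apoptosis inhibitor *BIRC3* (0.54). *ICAM1* (0.69, adjusted p = 0.26) and *CXCL1* (0.84, adjusted p = 0.135) were not called.

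Promoter stretches of 3 interferon-stimulated genes that rose hold the letters GAAANNGAAA of the interferon-stimulated response element, and those of 2 NF-kappaB targets that rose hold GGGNNTTTCC, a form of the kappaB element, on either strand (capitals). Of all 35116 windows, 3.57% held the first and 1.91% the second, and of the 12822 windows of genes tested here 3.92% and 2.81%. Fewer than 80% of the members of either list had a window (20 of 26 and 9 of 12), so a count over these lists is void as a comparison. Members that were not called held the letters as well. The first were in 6 of 9 interferon-stimulated genes called higher and in 10 of 11 not called. The second were in 4 of 5 NF-kappaB targets called higher and in 2 of 4 not called. The stretches are, in the strand of each gene, *IFI6* chr1:27672246-27672378 (minus strand), *IFIT1* chr10:89392477-89392559 (plus strand), *OAS3* chr12:112938301-112938473 (plus strand), *NFKBIA* chr14:35404791-35404860 (minus strand) and *NFKB2* chr10:102394470-102394539 (plus strand).
IFI6: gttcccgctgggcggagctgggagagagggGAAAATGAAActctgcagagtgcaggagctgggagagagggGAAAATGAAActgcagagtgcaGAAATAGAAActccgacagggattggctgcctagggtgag
IFIT1: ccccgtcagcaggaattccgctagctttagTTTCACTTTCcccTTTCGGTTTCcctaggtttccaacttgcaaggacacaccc
OAS3: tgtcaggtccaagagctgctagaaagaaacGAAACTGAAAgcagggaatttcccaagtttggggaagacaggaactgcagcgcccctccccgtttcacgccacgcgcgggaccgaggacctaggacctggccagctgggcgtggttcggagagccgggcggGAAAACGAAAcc
NFKBIA: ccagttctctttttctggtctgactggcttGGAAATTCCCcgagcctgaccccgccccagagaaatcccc
NFKB2: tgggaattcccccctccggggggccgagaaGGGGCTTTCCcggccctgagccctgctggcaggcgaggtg

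Markers of leukocytes were looked at beside these rises. Of 8 leukocyte and blood markers, 3 passed the filter and 1 was higher (33.3%, against 12.9% of all genes tested). It was *CD14* (2.13), with 128, 50.7, 129 and 29.8 in replicate 2 and 536, 156, 479.5 and 260 in replicate 3. The summed level of the 8 ran from 143 to 285 in replicate 2 and from 302 to 791 in replicate 3. The defining marker *PTPRC* (CD45) was at 0 to 0.98 normalized counts in replicate 2 and 0 to 6.61 in replicate 3, *CD3E* at 0 to 1.96 and 0 to 7.53, and *LYZ* at 0 to 2.94 and 0 to 17.2. Their part in the rises was not tested.

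Of 24 lysosome genes 14 were higher in replicate 3 (58.3%, against 12.9% of all genes tested) and 2 lower (8.33%, against 14.1%), with a median of 0.29. The pair medians were 0.31, 0.24, 0.42 and 0.11. The summed level of the list did not overlap, at 73861 to 84301 in replicate 2 and 87580 to 103420 in replicate 3. Leaving out 1 library gave 13 to 15 higher members, and 10 were higher and 1 lower without control and gag of replicate 3 (median 0.20). *MCOLN1*, the calcium channel of the lysosomal membrane (chr19:7522624-7534009, plus strand), had normalized counts of 728, 665, 669 and 436 in replicate 2 and 1694, 779.8, 1294 and 889 in replicate 3. The replicates did not overlap, and the rise was 0.86 (SE 0.12, adjusted p = 6.13e-05). Subunits or partners of the proton pump rose, namely *ATP6V0D1* (0.66) and *ATP6AP1* (0.36), as did the membrane protein *LAMP1* (0.47) and the cholesterol exporter *NPC1* (0.18). Hydrolases that rose included *CTSA* (0.59), *CTSD* (0.54), *NEU1* (0.46) and *GLA* (0.29). Prosaposin, *PSAP* (0.28), progranulin, *GRN* (0.46), and the autophagy receptor *SQSTM1* (0.44) were also higher. The hydrolases *HEXA* (-0.26) and *GAA* (-0.23) were lower, and the call of *HEXA* was lost without NC replicate 2, gag-pol replicate 2 or NC replicate 3 (adjusted p 0.0768 to 0.157).

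The letters CACGTGAC, a core of the CLEAR element bound by TFEB, occur on either strand in 2.4% of all windows and in 4.82% of those of genes tested here. They are shown in capitals for *MCOLN1*, where 3 matches lie before the start and 2 of them overlap because CACGTG reads the same on both strands, and for *CTSD*, cathepsin D. Since 16 of 24 members had a window, a count over the list is void as a comparison. The matches were in 5 of 11 members called higher, in *GAA*, which was lower, and in 0 of 4 not called. The stretches are *MCOLN1* chr19:7522551-7522623 (plus strand) and *CTSD* chr11:1763937-1764004 (minus strand).
MCOLN1: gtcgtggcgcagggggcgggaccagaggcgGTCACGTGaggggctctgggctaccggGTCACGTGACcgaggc
CTSD: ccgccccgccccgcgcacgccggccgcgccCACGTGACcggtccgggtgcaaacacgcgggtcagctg

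**Figure D3:**
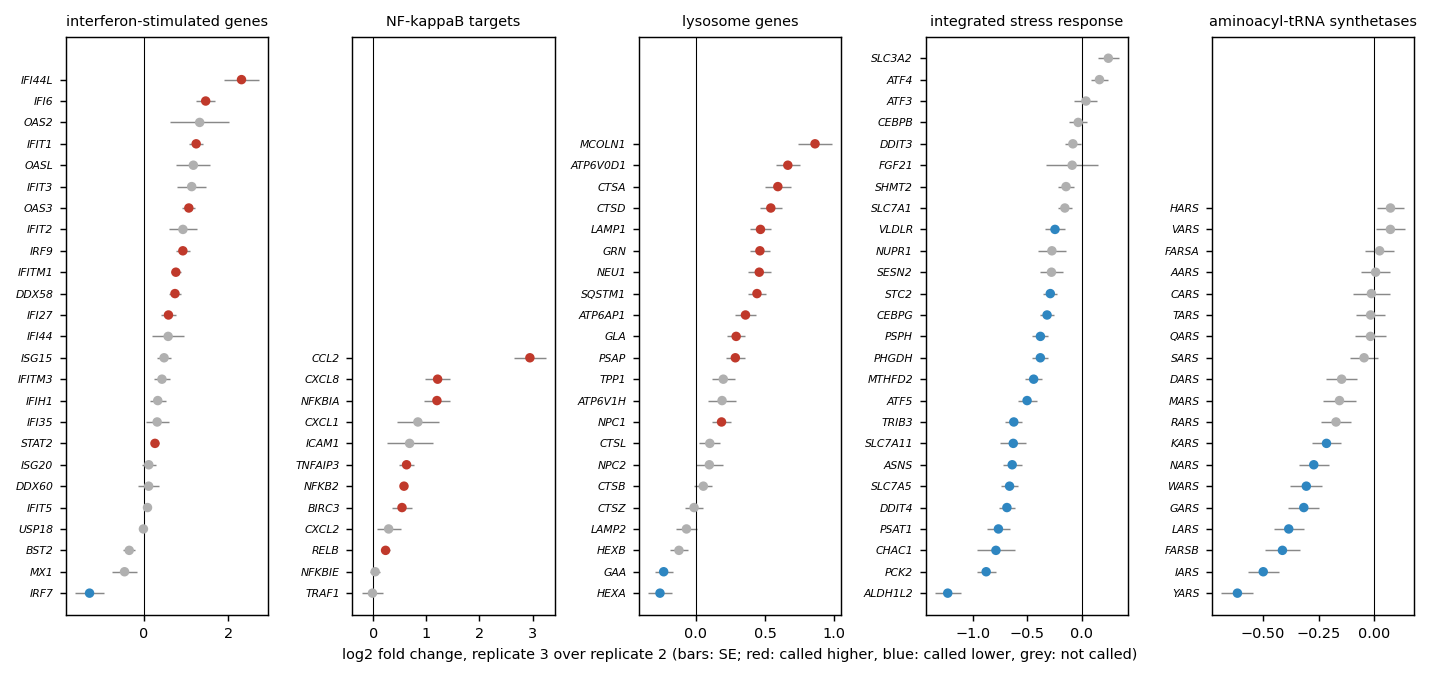
Log2 fold change of replicate 3 against replicate 2 with its standard error for tested members of 5 gene lists, in red where called higher, in blue where called lower and in grey where not called. Integrated stress response and tRNA synthetase members lie at or below 0 where called, and called interferon-stimulated, NF-kappaB and lysosome members lie above 0 except *IRF7*, *GAA* and *HEXA*.

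Genes linked to FOXO factors and quiescence were mostly higher where called. Of 18 tested, 8 were higher (44.4%, against 12.9% of all genes tested) and 1 lower (5.56%, against 14.1%), with a median of 0.19. The number of higher members was 5 without gag replicate 3, and 4 without both control and gag of replicate 3 (median 0.17). *YPEL3*, a growth-suppressing gene, had normalized counts of 1188, 728, 910.5 and 592 in replicate 2 and 2061, 1026, 1532 and 1123 in replicate 3. The ranges overlapped, while all 4 pairs rose, by 0.74 in the fit (SE 0.10, adjusted p = 1.08e-05). *YPEL5* (0.44) and *YPEL2* (0.26) of the same family also rose. *BCL6* (0.62) encodes a transcriptional repressor, *CDKN1B* (0.25) the cyclin-dependent kinase inhibitor p27, *FOXO4* (0.40) a FOXO factor and *SESN3* (0.28) a sestrin. *KLHL24* (0.35) was the remaining rise, while *FOXO1* (0.14) and *FOXO3* (-0.02) were not called.

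Of 18 glycolysis genes 7 were lower (38.9%, against 14.1% of all genes tested) and 0 higher, with a median of -0.19. Leaving out 1 library gave 6 to 9 lower members, and 4 were lower without control and gag of replicate 3 (median -0.15). The pair medians were -0.32, -0.01, -0.08 and -0.33, so that control and NC differed more than gag-pol and gag. *PGK1*, phosphoglycerate kinase, had normalized counts of 15292, 17028, 12863 and 21727 in replicate 2 and 7634, 14341, 9013 and 12937 in replicate 3. The ranges overlapped, and it fell by 0.61 (SE 0.14, adjusted p = 0.00758). The phosphofructokinases *PFKL* (-0.54), *PFKM* (-0.26) and *PFKP* (-0.22), the hexokinase *HK2* (-0.38), the isomerase *GPI* (-0.31) and lactate dehydrogenase A, *LDHA* (-0.49), were the other called members. *GAPDH* was at -0.19 (adjusted p = 0.0847).

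Of 22 hypoxia response genes, some of which belong to the same metabolism, 5 were lower (22.7%, against 14.1% of all genes tested) and 1 was higher. The number lower was 2 without NC replicate 2 or without NC replicate 3 and 3 without control replicate 2 or without gag replicate 2 or without gag replicate 3, and 2 without both control and gag of replicate 3. *PDK1*, the kinase that turns off pyruvate dehydrogenase, fell by 0.64 (adjusted p = 2.98e-05), from 885, 1301, 1233 and 1538 to 617, 887, 653 and 1015. *VEGFA* was at -0.21 and *CA9*, a defining hypoxia gene, at -0.11 (adjusted p = 0.915). Of 76 nuclear-encoded subunits of oxidative phosphorylation, 13 were lower (17.1%, near the 14.1% of all genes tested) and 1 was higher, with a median of -0.08. That count depended on single libraries, at 8 without NC replicate 2 or without control replicate 2, 7 without NC replicate 3, 6 without control replicate 3 and 20 without gag-pol replicate 3, and was 1 without both control and gag of replicate 3. The pair medians of -0.16, 0.10, 0.06 and -0.34 had both signs. The ATP synthase subunit *ATP5G2* had the largest fall of the list by the naming rule (-0.37, adjusted p = 0.00151). Sterol synthesis had 1 higher (4.35%) and 2 lower (8.7%) of 23, including *HMGCS1* (-0.58). Fatty acid synthesis had 2 higher (13.3%) and 3 lower (20%) of 15, of which *ACSS2*, acetyl-CoA synthetase, fell most (-0.50, adjusted p = 0.00202). Without control and gag of replicate 3, *ACSS2* was at -0.35 (adjusted p = 0.108).

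Among the alpha-arrestins and glucose-sensing genes, 2 of 8 were higher and 2 lower (25% each, against 12.9% and 14.1% of all genes tested). *ARRDC4*, which like *TXNIP* limits glucose uptake and is induced by the glucose-responsive factor MondoA, had normalized counts of 3826, 5652, 4474 and 5729 in replicate 2 and 1717, 3602, 2240.2 and 3495 in replicate 3. The replicates did not overlap, and it fell by 0.88 (SE 0.08, adjusted p = 1.79e-07). *TXNIP* counts were 709.9, 1395, 1307 and 1180.3 in replicate 2 and 550.5, 1081, 1000.2 and 798 in replicate 3. This fall of 0.42 (adjusted p = 0.00113) was seen in all 4 pairs, although the ranges of the replicates overlapped across constructs.

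Genes of growth and protein synthesis were examined next. *MYC*, the growth-promoting transcription factor, had normalized counts of 11508, 13838, 13442 and 12480 in replicate 2 and 4613, 10738, 7247 and 8779.7 in replicate 3. The replicates did not overlap, and *MYC* fell by 0.76 (SE 0.14, adjusted p = 0.00236). It was the 1 lower member among 19 immediate early genes, of which 5 were higher (26.3%, against 12.9% of all genes tested). The number higher was 9 without gag-pol replicate 1 or without gag-pol replicate 3 and 3 without control replicate 2 or without gag replicate 2 or without gag-pol replicate 2 or without NC replicate 3, and 3 without both control and gag of replicate 3. *IER3* (1.02, adjusted p = 0.00181) had the largest rise, followed by *ZFP36* (0.53), *JUND* (0.52), *JUN* (0.40) and *IER2* (0.29), while *FOS* was at -0.12 and *EGR1* at -0.27, neither called. Of 21 ribosome biogenesis genes, 8 were lower (38.1%, against 14.1% of all genes tested) and 2 higher (9.52%), with a median of -0.13. The number lower was 4 without control replicate 2 and 5 without gag replicate 2 or without control replicate 3 or without gag replicate 3, and 2 without both control and gag of replicate 3. *WDR12* (-0.35, adjusted p = 0.000961) and *NPM1*, nucleophosmin (-0.27), were among the lower members and *NOP2*, an rRNA methyltransferase, was higher (0.43, adjusted p = 0.000128). Of 85 cytosolic ribosomal protein genes 1 was higher (1.18%) and 3 were lower (3.53%), well under the shares of all genes tested. Of 14 translation factors with terminal oligopyrimidine mRNAs 1 was lower (7.14%), *PABPC1* (-0.28).

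Cell cycle genes were divided. Of 30 DNA replication genes, 5 were higher (16.7%, against 12.9% of all genes tested) and 8 lower (26.7%, against 14.1%). The median was 0.00, and the number lower without 1 library was 7 to 8. *CHAF1B*, a subunit of the chromatin assembly factor, fell by 0.63 (adjusted p = 2.25e-06), from 4422, 4941, 4373 and 5158 to 2599.7, 3702, 2669 and 3312, while its partner *CHAF1A* (0.31) and *UHRF1* (0.32, adjusted p = 0.000889) rose. *POLE2* (-0.49), *RRM2* (-0.37) and *CCNE1* (-0.36) were also lower. The number of higher members was 2 without control replicate 2 or without gag-pol replicate 2 and 3 without gag replicate 2 or without gag replicate 3. With control and gag of replicate 3 left out the list had 1 higher and 4 lower. Of 23 mitosis genes, 4 were lower (17.4%, near the 14.1% of all genes tested) and 1 was higher (4.35%). The number lower was 1 without NC replicate 2, NC replicate 3 or control replicate 3. It was 0 without control replicate 2, and also 0 without both control and gag of replicate 3. *MKI67* was at 0.42 (adjusted p = 0.103). Of 49 replication-dependent histone genes, whose mRNAs mostly lack poly(A) tails and are thus poorly sampled here, 6 were higher (12.2%, near the 12.9% of all genes tested) and 0 lower. The number higher was 2 without NC replicate 2 or without control replicate 2 or without gag replicate 2 or without control replicate 3 and 3 without NC replicate 3, and 2 without control and gag of replicate 3 together.

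Of 19 p53 targets, 4 were higher (21.1%, against 12.9% of all genes tested) and 8 lower (42.1%, against 14.1%). The number lower was 4 without NC replicate 2, 5 without control replicate 2 or without control replicate 3 and 3 without NC replicate 3, and with control and gag of replicate 3 left out the list had 1 higher and 4 lower. *CDKN1A*, the cell cycle inhibitor p21 (0.41), and *BBC3* (0.43) were higher together with *TP53INP1* (0.54), which was at 0.35 (adjusted p = 0.183) without control and gag of replicate 3. *MDM2* was at -0.07, not called. *GDF15*, a stress cytokine, was lower (-0.55), and its call was lost without NC replicate 2 or NC replicate 3 (adjusted p 0.0638 to 0.0805). Of 16 heat shock genes, 5 were lower (31.2%) and 1 higher (6.25%). The number lower was 3 without control replicate 2, gag replicate 2, NC replicate 3 or control replicate 3. It was 2 without both control and gag of replicate 3. *HSPA1A* (-0.67) and *HSPA1B* (-0.65) are near-identical copies whose reads cannot be assigned with certainty, and *HSPA1A* was at -0.60 (adjusted p = 0.05) without control and gag of replicate 3. *DNAJA1*, a co-chaperone, rose by 0.46. Genes of the unfolded protein response of the endoplasmic reticulum had 3 of 19 higher (15.8%) and 1 lower (5.26%). The central chaperone of that response, *HSPA5*, was at 0.09 (adjusted p = 0.321). *SYVN1*, a ubiquitin ligase of that pathway, rose by 0.38, and *EDEM1* fell by 0.29 and was at -0.20 (adjusted p = 0.146) without those libraries. NRF2 targets had 3 higher (16.7%) and 4 lower (22.2%) of 18, with *ABCC2* at 1.2 and *SLC7A11* at -0.63 as extremes and *NQO1* at -0.14. The number of lower NRF2 targets was 2 without control replicate 2 or without NC replicate 3 or without control replicate 3, and also 2 without both control and gag of replicate 3. Of 4 metallothionein and zinc export genes tested, 1 was lower (25%, against 14.1% of all genes tested), *MT1X* (-0.94).

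**Figure D4:**
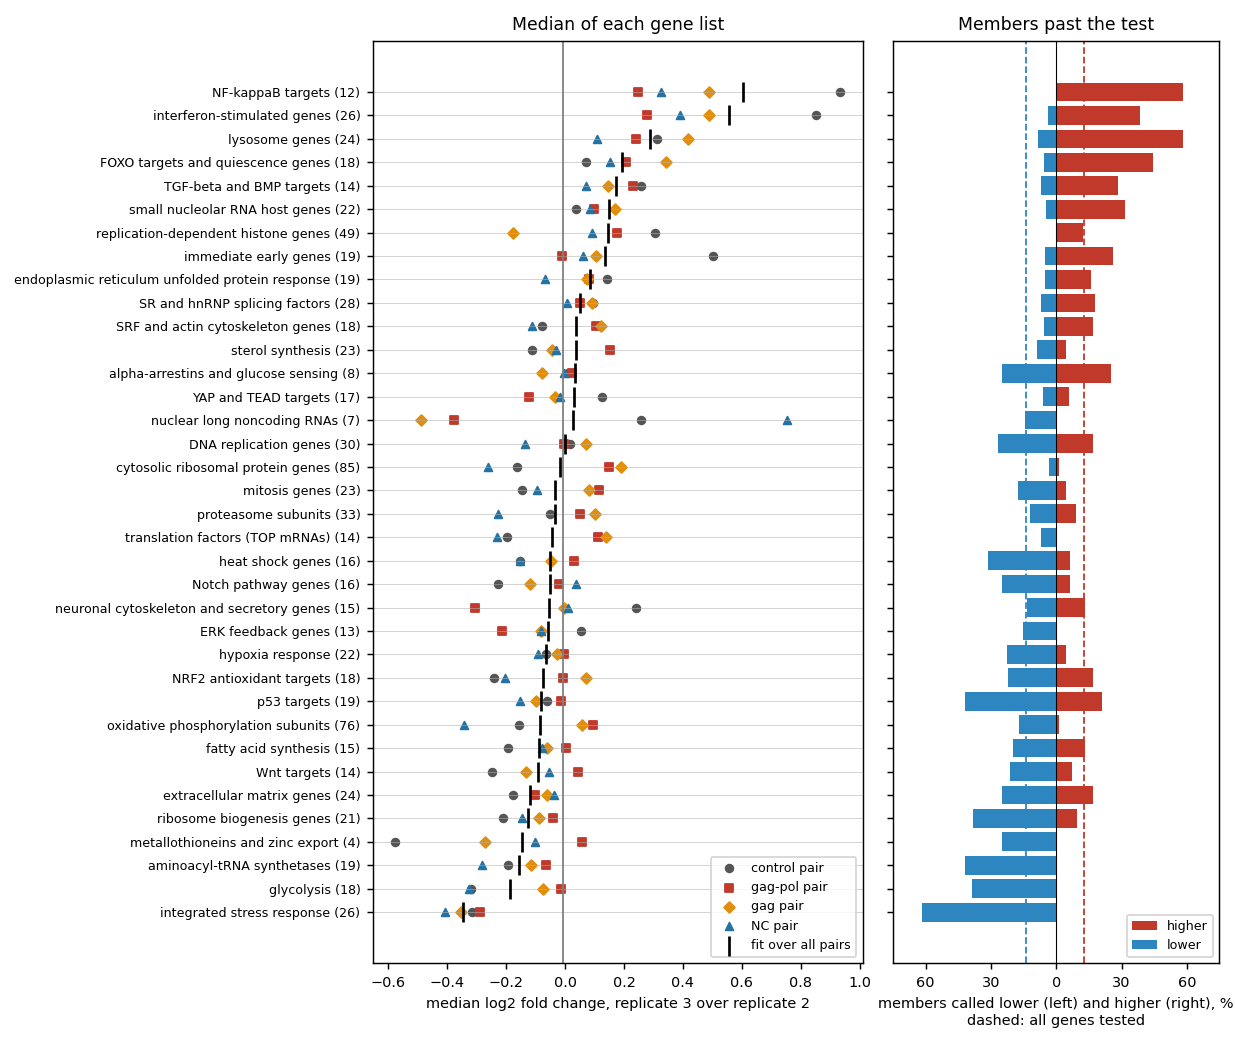
Median log2 fold change of each gene list in each construct pair (points) and in the fit over all pairs (black ticks; the vertical line is the median of all genes tested), with the share of tested members called higher and lower in replicate 3 (bars) beside the shares of all genes tested (dashed lines). The number of members tested is in parentheses. The integrated stress response has all 4 pair medians below 0 and the interferon, NF-kappaB and lysosome lists have all 4 above 0. Other lists do so too. The tRNA synthetase, glycolysis, hypoxia, ribosome biogenesis and p53 lists are below 0 in all pairs. The FOXO, TGF-beta and BMP, small nucleolar RNA host and splicing factor lists are above 0 in all pairs.

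Of 14 TGF-beta and BMP targets 4 were higher (28.6%, against 12.9% of all genes tested) and 1 lower (7.14%, against 14.1%). Without control and gag of replicate 3 there were 1 and 1. *ID1*, an inhibitor of differentiation factors, rose by 0.67 and was at 0.45 (adjusted p = 0.235) without those libraries, while *ID4* fell by 0.43 (adjusted p = 0.000148). Of 16 Notch pathway genes 4 were lower (25%) and 1 higher (6.25%). The number lower was 2 without control replicate 2, gag replicate 2, NC replicate 3 or control replicate 3. It was 1 without control and gag of replicate 3 together. The Notch target *HEYL* fell by 0.71 (adjusted p = 0.000165) and the receptor gene *NOTCH3* rose by 0.40 (adjusted p = 0.000238). Wnt targets had 1 higher (7.14%) and 3 lower (21.4%) of 14, with *TCF7* at -0.39, and at -0.25 (adjusted p = 0.0823) without those libraries. ERK feedback genes had 0 higher and 2 lower (15.4%, near the 14.1% of all genes tested) of 13. YAP and TEAD targets had 1 and 1 of 17 (5.88% each). Actin cytoskeleton targets of SRF had 3 higher (16.7%) and 1 lower (5.56%) of 18. Of the last, *TAGLN* rose by 0.77 and *ACTA2* fell by 0.45, and without those libraries they were at 0.60 (adjusted p = 0.122) and -0.43 (adjusted p = 0.0638).

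Of 22 small nucleolar RNA host genes 7 were higher (31.8%, against 12.9% of all genes tested) and 1 lower (4.55%, against 14.1%). The median was 0.15. The number higher was 4 without control replicate 2 or control replicate 3, and 3 without control and gag of replicate 3 together. *SNHG9* rose by 0.62 and *SNHG4* fell by 0.58, and without control and gag of replicate 3 they were at 0.48 (adjusted p = 0.0881) and -0.53 (adjusted p = 0.0515). Of 28 SR and hnRNP splicing factors 5 were higher (17.9%) and 2 lower (7.14%). The number higher was 0 without control replicate 2 and 3 without NC replicate 3 or gag replicate 3. Without gag replicate 2, gag-pol replicate 2 or control replicate 3 it was 2. It was 0 without control and gag of replicate 3 together. *HNRNPA3* was at -0.24, and at -0.17 (adjusted p = 0.137) without the 2 libraries. Of 7 long noncoding RNAs 0 were higher and 1 was lower (14.3%, near the 14.1% of all genes tested), *LINC00657* (-0.21). They are listed as nuclear although their place in the cell was not measured. Of 33 proteasome subunits 3 were higher (9.09%) and 4 lower (12.1%), both under the shares of all genes tested. The number lower was 2 without NC replicate 1, gag-pol replicate 1, NC replicate 2, control replicate 2 or NC replicate 3. It was 1 without the replicate 3 libraries of control and gag. *PSMD8*, a regulatory particle subunit, fell by 0.38 (adjusted p = 0.000159) and the ATPase subunit *PSMC5* rose by 0.31, at 0.17 (adjusted p = 0.171) without the 2 libraries. *RPL39L*, a ribosomal protein paralog, fell by 0.41 and was at -0.33 (adjusted p = 0.0831) without them.

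Of 24 extracellular matrix genes 4 were higher (16.7%, against 12.9% of all genes tested) and 6 lower (25%, against 14.1%). The number lower was 4 to 8 when any 1 library was left out, but with control and gag of replicate 3 left out the list had 1 higher and 2 lower, and without pairing by construct 1 higher and 0 lower. *COL3A1*, a fibrillar collagen chain, had normalized counts of 79, 29.3, 18.6 and 40.9 in replicate 2 and 376, 57.6, 172 and 67.2 in replicate 3. It rose by 1.82 (SE 0.35, adjusted p = 0.00108) and was at 0.89 (adjusted p = 0.188) without control and gag of replicate 3. *LOX*, the collagen-crosslinking oxidase, fell by 0.50 (adjusted p = 0.000142), and *FN1* (-0.21) and *SPARC* (-0.46) were lower too. Of 15 neuronal cytoskeleton and secretory genes 2 were higher and 2 lower (13.3% each, near the shares of all genes tested). *DCLK1*, a microtubule-binding kinase, had normalized counts of 1034, 1339.5, 907 and 1529 in replicate 2 and 489, 980.1, 636 and 1078 in replicate 3, and fell by 0.63 (adjusted p = 9.87e-05). *SYN1*, a synaptic vesicle protein, rose by 0.91 (adjusted p = 0.00179) and was at 0.49 (adjusted p = 0.232) without the 2 libraries.

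HEK293 cells express neurofilament and keratin genes, and these markers were present in every library. Of 12 HEK293 markers tested 1 was higher (8.33%) and 3 were lower (25%, against 14.1% of all genes tested). Summed levels were 47011 to 64992 in replicate 2 and 41770 to 53237 in replicate 3. *NEFL*, the light neurofilament, had normalized counts of 7147, 8887, 6188 and 11698 in replicate 2 and 3135, 6661, 3611 and 6515 in replicate 3. It fell by 0.80 (SE 0.10, adjusted p = 7.51e-05), with all pairs lower and overlapping ranges. *NEFH*, the heavy neurofilament, rose by 1.70 from 27.5, 24.4, 38.2 and 17.7 to 169.9, 28.4, 139 and 62.8, and was at 0.93 (adjusted p = 0.268) without control and gag of replicate 3. *LHX1*, a kidney developmental factor, fell by 0.59 and was at -0.37 (adjusted p = 0.201) without them. *INA* (-0.26) lost its call without control replicate 2, gag-pol replicate 2, NC replicate 3 or control replicate 3 (adjusted p 0.0516 to 0.0986). *VIM* (-0.15), *KRT8* (0.08), *KRT18* (0.10), *KRT19* (-0.16), *CDH2* (-0.17), *PAX2* (-0.16), *GATA3* (0.13) and *NEFM* (-0.37) were not called, and *PAX8* was at 9.3 or less and not tested.

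Markers of other cell types were also examined, beside 12.9% higher and 14.1% lower among all genes tested. Of 8 embryonic stem cell markers 3 were tested, with 1 lower (33.3%), *DNMT3B* (-0.29), and *TDGF1* and *ZFP42* were at 0 in all 8 libraries. Of 8 fibroblast markers 5 were tested, with 2 higher (40%), *COL3A1* and *COL1A1* (0.47), and 1 lower (20%), *PDGFRA* (-0.62). Their summed level was 747 to 1105 in replicate 2 and 1091 to 2078 in replicate 3, and the defining markers *DCN*, *LUM* and *THY1* were at 5.16 or less in all 8 libraries. Of 5 endothelial markers 3 were tested and 2 were higher (66.7%), *KDR* (2.50) and *PECAM1* (1.88), and 0 were higher without control and gag of replicate 3. Both were near the floor. *KDR* was at 0 to 7.84 normalized counts in replicate 2 and 2.2 to 41.2 in replicate 3, and *PECAM1* at 0.887 to 5.85 and 6.02 to 30.9. *VWF*, at 10.6 to 35.1 and 10.8 to 14.4, was tested and not called. Summed levels of the list were 17.7 to 44.1 and 34.2 to 97.8. Of 5 hepatocyte markers 1 was tested and not called, and *AFP* was at 0. Whether other cells contributed to the matrix or chemokine genes was not tested.

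Several genes that the naming rule gave, besides those above, lost their call when a single library was left out. *ARRDC2* (0.30) did so without control replicate 2, gag replicate 2, control replicate 3 or gag replicate 3 (adjusted p 0.0525 to 0.0667). For *CCNB2* (-0.27), cyclin B2, this happened without NC replicate 2, control replicate 2, NC replicate 3 or control replicate 3 (adjusted p 0.0949 to 0.165). *CENPF* (0.27), a kinetochore protein, was affected without NC replicate 2, NC replicate 3, control replicate 3 or gag replicate 3 (adjusted p 0.0776 to 0.16). *CLK1* (0.47), a kinase of SR proteins, was not called without NC replicate 2, control replicate 2, gag-pol replicate 2, NC replicate 3, control replicate 3 or gag replicate 3 (adjusted p 0.0532 to 0.0993). *EGLN3* (0.31), an oxygen-sensing hydroxylase, was not called without control replicate 2, gag replicate 2, gag-pol replicate 2, gag replicate 3 or gag-pol replicate 3 (adjusted p 0.0801 to 0.177). *FADS2* (0.24), a fatty acid desaturase, lost it without control replicate 2, gag-pol replicate 2, NC replicate 3, gag replicate 3 or gag-pol replicate 3 (adjusted p 0.0502 to 0.0909).

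The same held for 5 others. *COX6A1* (0.21), a subunit of cytochrome c oxidase, was not called without NC replicate 1, control replicate 1, gag replicate 1, gag-pol replicate 1, control replicate 2, gag replicate 2, gag-pol replicate 2, control replicate 3, gag replicate 3 or gag-pol replicate 3 (adjusted p 0.0501 to 0.201). *IRS2* (-0.19), an insulin receptor substrate, lost its call without gag replicate 1, gag-pol replicate 1, control replicate 2, gag replicate 2, gag-pol replicate 2, control replicate 3, gag replicate 3 or gag-pol replicate 3 (adjusted p 0.0504 to 0.128). *RPS15* (0.23), a ribosomal protein, was not called without NC replicate 1, gag-pol replicate 1, control replicate 2, gag replicate 2, gag-pol replicate 2, gag replicate 3 or gag-pol replicate 3 (adjusted p 0.0514 to 0.17). *HIST1H4H* (0.78), a histone H4 gene, lost its call without NC replicate 2, control replicate 2, gag replicate 2, NC replicate 3 or control replicate 3 (adjusted p 0.0928 to 0.191). *NOTUM* (0.45), a secreted Wnt inhibitor, was not called without NC replicate 2, NC replicate 3 or gag replicate 3 (adjusted p 0.0504 to 0.0985).

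Of 552 genes tested on the X chromosome, 138 were lower (25%, against 14.1% of all genes) and 39 higher (7.07%, against 12.9%), with a median of -0.14 against -0.01 over all genes. The median was -0.20 in the control pair, -0.07 in gag-pol, -0.13 in gag and -0.13 in NC, and -0.09 without control and gag of replicate 3. After each gene's value was corrected for its GC content and length, the X median was -0.10, against 0.02 over all genes. These properties were known for 96.2% of genes. Among X-linked genes, chosen after their values were seen, *IRS4*, an insulin receptor substrate abundant in HEK293 cells, had normalized counts of 25681, 38776, 28651 and 32138 in replicate 2 and 9712, 20003, 12280 and 18756 in replicate 3. It fell by 1.09 (SE 0.08, adjusted p = 3e-08). *AMOT*, angiomotin, fell by 1.11 and *ZNF711* by 0.90. Chromosome 19 lay at the other end in the uncorrected values, with 23.4% of 1229 genes higher and a median of 0.06. With that correction its median was 0.04, below those of chromosomes 6 (0.06), 13 (0.06), 17 (0.05) and 16 (0.05), and without control and gag of replicate 3 it was 0.04, below chromosome 16 (0.05).

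**Figure D5:**
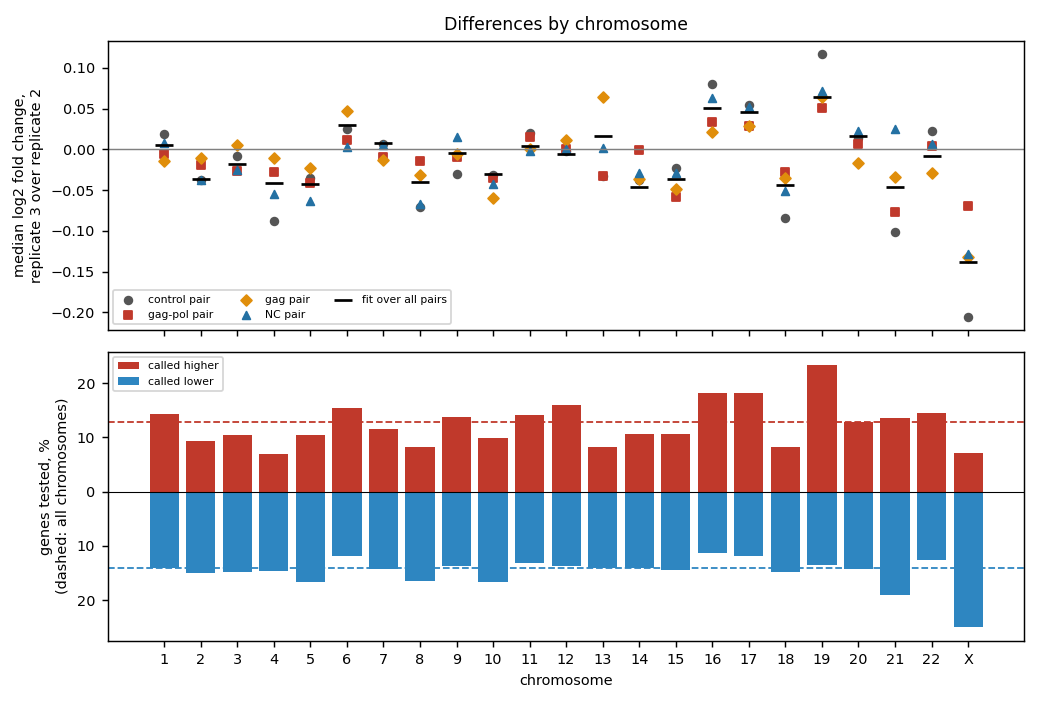
Median log2 fold change of replicate 3 against replicate 2 over the tested genes of each chromosome, for the fit over all pairs (black bars) and for each construct pair (points), above the shares of genes called higher and lower (colored bars; dashed lines, all chromosomes). The X chromosome has the lowest median (-0.14) and lies below 0 in all 4 pairs, and chromosome 19 has the highest (0.06) in these uncorrected values.

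The pairs differed in the direction in which library composition moved. Ribosomal protein genes took 7.41% of counts in replicate 2 and 7.2% in replicate 3 on average, and the 100 most abundant genes 17.1% in both (exact sign-flip permutation test over 4 pairs, two-sided p = 0.625 and p = 1). Histone genes took 0.0393% and 0.0424% (exact p = 0.5), and *PEG10* 1.88% and 2.33% (exact p = 0.75). With 4 pairs this test cannot pass 0.05, since the smallest p is 1 in 8, and the averages hide opposite moves. The ribosomal protein share went from 8.75% to 7.5% in NC and from 7.08% to 7.75% in gag-pol. The share of the 100 most abundant genes went from 17.8% to 20.4% in gag and from 15.3% to 14% in control, and that of *PEG10* from 3.78% to 6.1% in gag and from 3.48% to 2.8% in gag-pol. The 13 mitochondrially encoded protein genes were not analysed here.

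The design also asked whether the difference between harvests depended on PEG10. In the fit with this interaction 3 of 17176 genes (0.0175%) were called, and 1284 had an unadjusted p under 0.05, with 4 residual degrees of freedom. All 3 calls rest on control libraries, of which there is 1 a replicate. *RN7SL1*, the RNA of the signal recognition particle, had normalized counts of 78.1, 289, 747 and 588 in replicate 2 and 261, 147, 334 and 205 in replicate 3, and *RMRP*, the RNA of RNase MRP, had 8.87, 73.2, 192 and 144 in replicate 2 and 71, 21.5, 19.6 and 13.2 in replicate 3. Control of replicate 2 was the lowest of the 8 libraries for both. These RNAs are made by RNA polymerase III without poly(A) tails and are poorly sampled by a poly(A) library. Their interaction terms were -2.96 (adjusted p = 0.00175) and -5.82 (adjusted p = 0.0145) on the log2 scale. *NGFR*, the low-affinity neurotrophin receptor, had 1409, 571, 427 and 578 in replicate 2 and 805, 813, 716 and 808 in replicate 3, with a term of 1.38 (adjusted p = 0.0207). Without control of replicate 2 or of replicate 3 the term could not be fitted, and leaving out NC replicate 2 gave 15 genes, gag replicate 3 gave 11, gag replicate 2 gave 7, and gag or gag-pol replicate 1 gave 5 each.

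Replicate 1 was not part of the contrast, and its levels place the differences between the other two. Comparisons with replicate 1 share the libraries of replicate 2 or 3. Replicate 2 differed from replicate 1 in 30.5% of genes and replicate 3 in 41.6%. *IFI6* had normalized counts of 415, 347, 379.6 and 443 in replicate 1, so the log2 fold change was -0.11 for replicate 2 against replicate 1 (adjusted p = 0.769) and 1.36 for replicate 3 against it (adjusted p = 0.0012). *IFIT1* of the same list was at 788, 428, 844 and 529, where replicate 2 passed the test and replicate 3 did not, with -0.91 (adjusted p = 0.0011) against 0.33 for replicate 3 (adjusted p = 0.128). *IRF7*, its lower member, was at 29.063, 21.15, 33.85 and 29.737 in replicate 1. Both other replicates were above that, by 2.86 for replicate 2 (adjusted p = 9.39e-05) and 1.57 for replicate 3 (adjusted p = 0.00482). For *MCOLN1*, at 1212, 838, 904 and 799, the values were -0.59 (adjusted p = 0.00156) and 0.27 (adjusted p = 0.0767), and for *CARD6* -1.11 (adjusted p = 1.23e-05) and 0.31 (adjusted p = 0.0859). *CCL2* was at 59.2, 12.1, 31.4 and 12.3 in replicate 1 and *YPEL3* at 1291, 1011, 978 and 759. *ASNS* was at 11996, 11134, 11652 and 15206, with 0.33 for replicate 2 (adjusted p = 0.0065) and -0.31 for replicate 3 (adjusted p = 0.00737). *ALDH1L2* was at 649, 727, 733 and 1079.8 and *MYC* at 12867, 16669, 16080 and 14804 in replicate 1. *NEFL* was at 6693, 8128, 5959 and 9542.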

How the data were processed

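RNA was measured by poly(A) RNA-seq in 12 libraries of transfected HEK293 cells. The authors mapped read pairs with STAR 2.7.3 to GRCh38.p13, sorted alignments with SAMtools 1.8 and deposited gene counts made with featureCounts. These raw counts were used as deposited. The strand setting and annotation release are not given in the sources used here, so overlapping and near-identical genes are uncertain. All columns of counts belong to the 12 libraries.

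Counts were fitted once over all 12 libraries in edgeR 4.0.16 (R 4.3.3), with TMM factors, removal of weakly counted genes by filterByExpr (at least 10 counts, 15 in total, grouped by construct) and robust quasi-likelihood dispersion. Construct and replicate number were terms, and replicate 3 was contrasted with replicate 2, with 6 residual degrees of freedom. The construct term pairs the 4 libraries a side. P-values were adjusted by the Benjamini-Hochberg method across 17176 genes, with a threshold of 0.05. A second fit added the interaction of replicate number with PEG10 transfection. The first fit, but not the second, was tested on simulated counts. Those counts held changes in only a small set of genes and no effects of construct, unlike these data. Depth of at least 30625725 counts a library left genes near the filter as the least precise.

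Gene lists were described by counts of called members and the median log2 fold change, without a test of the list. The lists and the comparison were chosen with earlier results of these data known. Genes named were the 10 largest rises and falls at a mean log2 CPM of at least 3 with the same sign in all pairs, leaving out antisense, readthrough and unnamed loci, the largest called rise and fall of each list with at least 4 called members (mean of at least 1), and *PEG10*, *TXNIP* and HEK293 markers. Once values had been seen, other members of described lists, the 3 interaction genes and X-linked genes were added. Positions and promoter windows are for GRCh38, and 74.7% of genes tested had a RefSeq window. Alternatives used DESeq2 1.42.0, other scaling, filters, thinned counts, no pairing by construct, and libraries or constructs left out. Another was a GC and length correction, a trend fitted in R and passed to edgeR as an offset. Some list members enter the counts but are not reported by name here.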

Additional observations from a re-analysis of the deposited data

Results flagged for a closer look

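In groups of 4 libraries, the lowest or highest value was set apart from the others in 4 of 172 comparisons by a gap to its nearest neighbor that, over the whole range, exceeded Dixon's 95% critical value. Chance flags about 1 in 20 such groups. *ZNF334* had 354 normalized counts in gag of replicate 3, against 445 to 462 in the other libraries of that replicate. *CENPF* had 14200 in NC of replicate 2, against 16900 to 17200. *NEFM* had 110 in control of replicate 3, against 42.2 to 45.2. *INA* had 1510 in gag of replicate 2, against 1910 to 1950.

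For 3 genes the difference between replicate 3 and replicate 2 depended on PEG10 transfection in edgeR's interaction test, with Benjamini-Hochberg adjustment over 17176 genes. The difference in PEG10-transfected cells minus that in control cells was -2.96 on the log2 scale for *RN7SL1*, -5.82 for *RMRP* and 1.38 for *NGFR*. Each replicate has 1 control library. *NGFR* went from 1409 to 805 normalized counts in control and rose in all 3 PEG10 pairs. The cause of these differences was not tested.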

How the results depend on the processing

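The 4653 called genes (2223 higher, 2430 lower) became 1639 (804 and 835) with no replicate block, that is without pairing by construct. They became 1112 (510 and 602) against a 1.2-fold change, 1543 (722 and 821) when called genes also had to change by 0.5 or more on the log2 scale, 3058 (1453 and 1605) without construct control, 2790 (1324 and 1466) without construct gag and 1741 (778 and 963) without control and gag of replicate 3. Leaving out 1 library gave 3207 to 4927 genes, 1495 to 2335 higher and 1712 to 2592 lower. DESeq2 called 4907 genes and the other alternatives 3674 to 4812. Of the 78 calls of named genes 0 were reversed, but 34 were lost without pairing by construct, 38 against a 1.2-fold change, 28 at the 0.5 limit, 30 without control and gag of replicate 3, 6 to 17 without a construct, 2 to 13 without 1 library and 11 with only the 8 libraries of replicates 2 and 3. Without the block, the higher interferon-stimulated genes numbered 6, NF-kappaB targets 4 and lysosome genes 7, and the lower integrated stress response genes 11, tRNA synthetases 5 and glycolysis genes 1. Other list counts fell further, with FOXO and quiescence genes higher going from 8 to 1, oxidative phosphorylation lower from 13 to 1, ribosome biogenesis lower from 8 to 1, heat shock lower from 5 to 1, p53 targets lower from 8 to 2, extracellular matrix lower from 6 to 0, mitosis lower from 4 to 0 and SR and hnRNP factors higher from 5 to 0.

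Genes whose difference depended on PEG10 numbered 9 by DESeq2, 33 with no filter on low counts and 2 to 15 without 1 library. Without control replicate 2 or control replicate 3 the term could not be fitted, so that each value rests on both. *NGFR* was at 1.41 and not called without gag-pol replicate 2 (adjusted p = 0.0511) or gag-pol replicate 3 (adjusted p = 0.0854). For these genes the cause was not tested. Depth limits genes near the filter, and the 2 harvests limit all results.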
